A study of Mus musculus with 28 samples.

Results

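The 7 synaptic plasticity genes described here were followed in hippocampal CA1 after a seizure-inducing drug: Arc, Homer1, Plk2, Plk3, Nptx1, Nptx2 and Nptxr. They were taken by symbol from the deposited gene tables, which hold all 7 members among 14711 genes in all, and all 7 passed the filter on low counts in every comparison. C57BL/6 mice 3 to 4 weeks old carried a floxed, HA-tagged allele of the ribosomal protein gene Rpl22 and 1 of 2 Cre drivers. The genotype was CaMK2a-Cre/+; LSL-Rpl22-HA/+ in the CaMK2a line and PV-Cre/+; LSL-Rpl22-HA/+ in the PV line, so every group carries the tagged allele and a Cre. Cre expressed from the CaMK2a gene is used to reach excitatory forebrain neurons, and Cre expressed from the parvalbumin (PV) gene to reach fast-spiking interneurons. The treatments were kainic acid, which activates glutamate receptors and brings on seizures, and phosphate buffered saline (PBS). The labels put the dissection of CA1 at 6 h in both, but in the headers of the tables the PBS libraries carry a start time instead, and how long after PBS they were taken is unknown.

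Each lysate pool gave an anti-HA immunoprecipitate (IP), which holds transcripts on tagged ribosomes, and an input taken from the lysate beforehand. The 8 groups hold 3 (CaMK2a) or 4 (PV) libraries each. Pools were of 4 mice for CaMK2a, with 20 ng of RNA amplified, and of 9 to 10 mice for PV, with 2.5 ng amplified. Depth was 6.06 to 15.8 M counted reads per library. Replicate 4 of the PV line stands apart from replicates 1 to 3, and some of the results that depend on it are also given without it. After PBS the PV IP carried the markers of its labelled cells. Its summed level of 11 PV interneuron markers was 6355 to 7636 CPM, against 1818 to 1967 CPM in its input and 715 to 761 CPM in the CaMK2a IP. In the CaMK2a line the margin was smaller. There 11 pyramidal neuron markers summed to 11052 to 12625 CPM in the IP and 9317 to 10517 CPM in the input, with 9 called higher and 1 lower. Transcripts of other cells remained in the PV IP, where 11 pyramidal neuron markers summed to 4627 to 5582 CPM against 9510.3 to 10375 CPM in the input. CPM is the count scaled by library size with trimmed mean (TMM) factors over all 28 libraries.

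Strong synaptic activity turns on a set of genes whose products act on the synapse itself. Arc is an immediate early gene whose protein helps withdraw AMPA-type glutamate receptors from the postsynaptic membrane. Homer1 encodes a postsynaptic scaffold that links metabotropic glutamate receptors to Shank proteins and calcium stores, and a short form induced by activity uncouples these links. Plk2 and Plk3 are polo-like kinases induced by activity, and Plk2 is known for weakening synapses after prolonged firing. The pentraxins Nptx1 and Nptx2 are secreted proteins that cluster AMPA receptors, and Nptxr, the membrane-anchored pentraxin, binds them. Neuronal pentraxin 2, the product of Nptx2 and also called Narp, is known for recruiting AMPA receptors onto PV interneurons.

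Promoter sequence was at hand for the kinases and for Homer1, and not for Arc or the pentraxins. The windows are the 250 bases before the RefSeq start on GRCm38.p6, read 5′ to 3′ on the strand of the gene. Capitals mark TGACG, the first part of the cyclic AMP response element (CRE), on either strand, and the whole element TGACGTCA, which contains TGACG on both strands. The Homer1 window, chr13:93303507-93303756 (+), belongs to the first of 2 listed starts. The Plk2 window is chr13:110394794-110395043 (+) and the Plk3 window chr4:117133964-117134213 (-).
Homer1: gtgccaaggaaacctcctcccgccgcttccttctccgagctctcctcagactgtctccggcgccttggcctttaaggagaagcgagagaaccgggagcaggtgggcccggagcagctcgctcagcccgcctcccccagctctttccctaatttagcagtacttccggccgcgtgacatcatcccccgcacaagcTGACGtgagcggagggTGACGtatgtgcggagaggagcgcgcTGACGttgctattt
Plk2: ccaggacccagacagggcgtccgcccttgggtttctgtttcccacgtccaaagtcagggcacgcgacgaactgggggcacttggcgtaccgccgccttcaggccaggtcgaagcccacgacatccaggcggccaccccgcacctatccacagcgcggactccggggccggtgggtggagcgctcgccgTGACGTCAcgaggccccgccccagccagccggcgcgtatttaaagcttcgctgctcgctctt
Plk3: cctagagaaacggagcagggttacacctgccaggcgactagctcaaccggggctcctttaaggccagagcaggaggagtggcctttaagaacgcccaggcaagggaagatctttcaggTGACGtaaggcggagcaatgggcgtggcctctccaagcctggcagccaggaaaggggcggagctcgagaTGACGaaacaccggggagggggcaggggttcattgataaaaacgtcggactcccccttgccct
The Homer1 window holds TGACG 3 times, starting 56, 40 and 14 bases before the start. The Plk2 window holds the full TGACGTCA from 62 to 55 bases before the start, and the Plk3 window holds TGACG 2 times, starting 132 and 63 bases before it. Of 32851 RefSeq windows of 250 bases, 17.8% hold TGACG and 1.55% hold TGACGTCA. The AP-1 motif TGANTCA, on both strands, and the CArG box were also searched; they occur in 6.75% and 1.47% of all windows and in none of these 3. The second Homer1 window held no match to any of these motifs. These matches describe the letters only.

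Kainic acid against PBS asks how the transcripts differed after the drug in each of 4 fractions. Changes are log2 fold changes ± SE from edgeR quasi-likelihood tests, and a gene is called higher or lower where its Benjamini-Hochberg adjusted p over all tested genes is under 0.05. In the CaMK2a IP 6 of 7 members were called higher, where 19.8% of all tested genes were called higher. In the CaMK2a input 7 of 7 were called higher, against 19.3% of all genes. In the PV IP 5 of 7 were called higher against 4.05%, and in the PV input 5 of 7 against 8.21%. No member was called lower in any of these fractions by edgeR adjusted p (0 of 7 in each), where 15.3%, 15.7%, 0.801% and 3.36% of genes were. None had a negative change at an unadjusted p under 0.05 either, a cut for which the share of all genes is not given. The median change of the 7 members was 1.36, 1.96, 2.20 and 1.81 in the CaMK2a IP, CaMK2a input, PV IP and PV input, against medians of 0.01, -0.02, -0.02 and -0.02 over all tested genes. In bulk tissue, fewer cells of a type and less RNA per cell cannot be told apart.

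**Figure D1:**
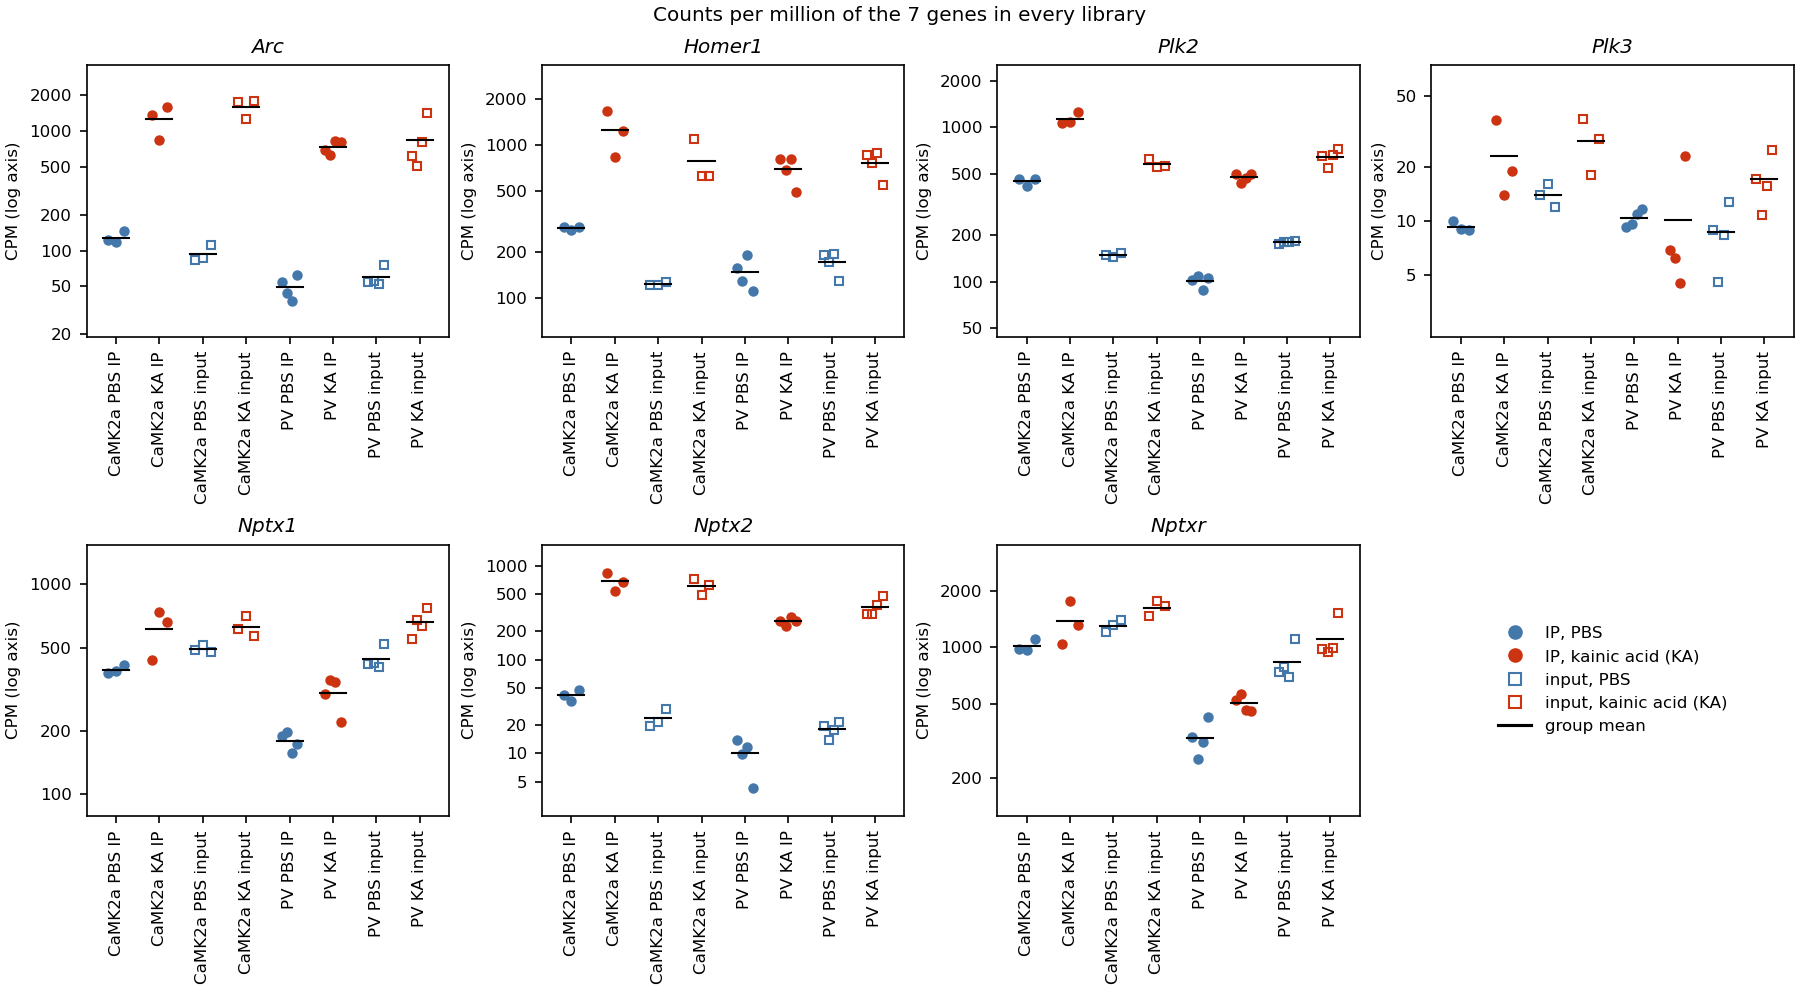
CPM (log axis) of each gene in every library, with IP as filled circles, input as open squares, PBS in blue, kainic acid (KA) in red and the group mean as a black line. Arc, Homer1, Plk2 and Nptx2 libraries after kainic acid all lie above the PBS libraries of the same line and fraction, Nptx1 and Nptxr moved less, and 1 PV IP library after kainic acid holds a high Plk3 level of 23.1 CPM.

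Arc (gene ID 11838, mm10 chromosome 15, minus strand, 74669081 to 74672570, 3 exons) rose 9.95-fold to 17.1-fold over the 4 fractions. In the CaMK2a IP its libraries held 122, 117 and 145 CPM after PBS and 1372, 848 and 1574 CPM after kainic acid. The PV IP held 54.0, 43.9, 38.1 and 62.5 CPM after PBS and 698, 629, 822 and 814 CPM after kainic acid. All treated libraries lay far above all PBS libraries. Its change was 3.31 ± 0.21 in the CaMK2a IP, or 9.95-fold (adjusted p = 4.2e-06, n = 3 per group by edgeR), and 3.87 ± 0.21 in the PV IP, or 14.6-fold (adjusted p = 8.9e-09, n = 4 per group by edgeR). The inputs rose from 83.6 to 112 CPM to 1271 to 1776 CPM for CaMK2a, and from 52.2 to 76.1 CPM to 513 to 1406 CPM for PV. These were changes of 4.10 ± 0.15 and 3.77 ± 0.30. The highest PV input library after kainic acid, at 1406 CPM, was replicate 4.

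Homer1 (gene ID 26556, chromosome 13, plus strand, 93304495 to 93405129, 11 exons) rose 4.38-fold to 6.36-fold over the fractions. CaMK2a IP libraries held 290.0, 275 and 291 CPM after PBS and 1660.5, 837 and 1238 CPM after kainic acid, a change of 2.14 ± 0.20 (edgeR adjusted p = 5.1e-05). PV IP libraries held 157, 128, 190.4 and 111 CPM after PBS and 803, 685, 811 and 491 CPM after kainic acid, a change of 2.22 ± 0.21 (edgeR adjusted p = 3.4e-06). Treated and PBS libraries did not overlap in any fraction, and the input changes were 2.67 ± 0.16 (CaMK2a) and 2.13 ± 0.19 (PV). Counts are per gene, and GENCODE M21 lists 11 coding Homer1 transcripts with 8 different ends between 93360462 and 93405129. The short and long forms, which act in opposite ways, are therefore summed here.

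Of the polo-like kinases, Plk2 (gene ID 20620, chromosome 13, plus strand, 110395044 to 110400844, 14 exons) rose in all 4 fractions. Its CaMK2a IP libraries held 461, 417 and 465 CPM after PBS and 1074, 1077 and 1266 CPM after kainic acid. Its PV IP libraries held 103, 109, 87.9 and 105 CPM after PBS and 498, 439, 470.1 and 495 CPM after kainic acid. The spread within each group was small and no treated library overlapped a PBS library. Changes were 1.36 ± 0.09 in the CaMK2a IP, or 2.56-fold, and 2.20 ± 0.17 in the PV IP, or 4.61-fold, with edgeR adjusted p of 6.9e-06 and 3.9e-07. In the inputs they were 1.96 ± 0.09 and 1.81 ± 0.12.

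Plk3 (gene ID 12795, chromosome 4, minus strand, 117128655 to 117133952, 15 exons) was the least abundant member after kainic acid and passed the test in both CaMK2a fractions and in neither PV fraction. CaMK2a IP libraries held 9.97, 9.01 and 8.95 CPM after PBS and 36.7, 14.0 and 19.0 CPM after kainic acid, a change of 1.32 ± 0.31 (edgeR adjusted p = 0.0093). The CaMK2a input rose by 0.99 ± 0.22 (edgeR adjusted p = 0.0018). PV IP libraries held 9.22, 9.63, 10.9 and 11.7 CPM after PBS and 6.87, 6.21, 4.50 and 23.1 CPM after kainic acid. Replicates 1 to 3 after kainic acid lay below all PBS libraries and replicate 4 above them, and these libraries rest on 45 to 383 counts. The change of -0.04 ± 0.51 did not pass (edgeR adjusted p = 0.98), and with PV replicates 1 to 3 only it was -0.78 (edgeR adjusted p = 0.49). In the PV input Plk3 changed from 4.54 to 12.8 CPM to 10.8 to 25.1 CPM, a difference of 0.95 ± 0.34 that did not pass (edgeR adjusted p = 0.095). With replicate number as a block it was 0.98 and passed (edgeR adjusted p = 8.7e-04), though equal numbers are not shown to pair pools across treatments. It also passed without PBS input replicate 4, at 1.23 (edgeR adjusted p = 0.03), and by DESeq2, at 0.95 (adjusted p = 0.043). Plk3 shares 84 of its 2531 exonic bases with Tctex1d4 on the opposite strand, and strandedness is not given in the sources used here.

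Among the pentraxins, Nptx2 (gene ID 53324, chromosome 5, plus strand, 144545887 to 144557478, 5 exons) had the largest fold change of the 7 members in each fraction. It went from 42.1, 35.8 and 47.7 CPM to 841, 535 and 665 CPM in the CaMK2a IP, 16.3-fold (edgeR adjusted p = 8.1e-07). The PV IP held 14.0, 9.86, 11.7 and 4.32 CPM after PBS and 255, 229.6, 282 and 259 CPM after kainic acid. That is 25.4-fold, or 4.66 ± 0.30 (edgeR adjusted p = 5.3e-08), and the lowest PBS library was replicate 4. The inputs rose 26.0-fold in the CaMK2a line, from 19.4 to 29.9 CPM to 485 to 717 CPM, and 19.5-fold in the PV line, from 13.9 to 21.6 CPM to 304 to 479 CPM.

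Nptx1 (gene ID 18164, chromosome 11, minus strand, 119538719 to 119547820, 5 exons), the close relative of Nptx2, rose by less than 2-fold. In the CaMK2a IP it went from 379, 385 and 413 CPM to 437, 743 and 659 CPM, and in the PV IP from 189, 198, 158 and 174 CPM to 299, 350.1, 344 and 219.9 CPM. The treated libraries lay above the PBS libraries in all 4 fractions, with close pairs at 437 against 413 CPM in the CaMK2a IP, 219.9 against 198 CPM in the PV IP and 549 against 522 CPM in the PV input. Changes were 0.65 ± 0.16, 0.36 ± 0.10, 0.73 ± 0.18 and 0.54 ± 0.14 in the CaMK2a IP, CaMK2a input, PV IP and PV input, with edgeR adjusted p of 0.011, 0.0076, 0.027 and 0.028. The CaMK2a IP call ended without kainic acid replicate 3 or PBS replicate 1, at edgeR adjusted p of 0.056 and 0.052. The PV IP call ended without any single one of replicates 1 to 3 of either treatment, at edgeR adjusted p between 0.063 and 0.11. The PV input call ended without kainic acid replicate 2 or 3 or PBS replicate 1, 2 or 3, at edgeR adjusted p between 0.07 and 0.099. It also ended with upper-quartile factors, at 0.49 (edgeR adjusted p = 0.057), and with all groups of the line in 1 fit, at 0.51 (edgeR adjusted p = 0.062).

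Nptxr (gene ID 73340, chromosome 15, minus strand, 79786351 to 79804709, 5 exons), which encodes the membrane-bound pentraxin, had the smallest change of the 3 pentraxins in each fraction. CaMK2a input libraries held 1207, 1311 and 1392 CPM after PBS and 1469, 1762 and 1656 CPM after kainic acid, a change of 0.32 ± 0.10 (edgeR adjusted p = 0.017) that ended without PBS input replicate 1 or 2, at edgeR adjusted p of 0.12 and 0.079, and with all groups of the line in 1 fit, at 0.33 (edgeR adjusted p = 0.072). The difference was 0.44 ± 0.16 in the CaMK2a IP (edgeR adjusted p = 0.052), 0.58 ± 0.19 in the PV IP (edgeR adjusted p = 0.096) and 0.39 ± 0.19 in the PV input (edgeR adjusted p = 0.24). The CaMK2a IP difference passed without kainic acid replicate 1, at 0.60, with the stricter filter, at 0.45 (edgeR adjusted p = 0.049), with all groups of the line in 1 fit, at 0.41 (edgeR adjusted p = 0.026), and by DESeq2, at 0.44 (adjusted p = 0.024). In the authors' deposited table its FDR is 0.04. In the PV IP it passed with replicates 1 to 3 only, at 0.77, without kainic acid or PBS replicate 4 alone, at 0.61 and 0.74, and by DESeq2, at 0.58. In the PV input replicate 4 lay high after both treatments, at 1102 CPM after PBS and 1530.5 CPM after kainic acid, against 694 to 789 and 948 to 994 CPM in the other replicates. Without PBS input replicate 4 the PV input difference was 0.57 and passed (edgeR adjusted p = 0.046). With replicate number as a block it was 0.39 and passed (edgeR adjusted p = 4.8e-05). In that fit 7 of 7 members were called higher in the PV input, against 16.5% of all genes. Equal numbers are not shown to pair pools across treatments. In the tables Nptxr shares its position with Npcd (gene ID 504193, chromosome 15, 79786351 to 79834333, same strand), whose count was 98.0% to 106.4% of the Nptxr count in all 28 libraries. In GENCODE M21, by contrast, Npcd shares only 890 of the 5170 exonic bases of Nptxr. Reads can belong to either gene, so the Nptxr level is uncertain.

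**Figure D2:**
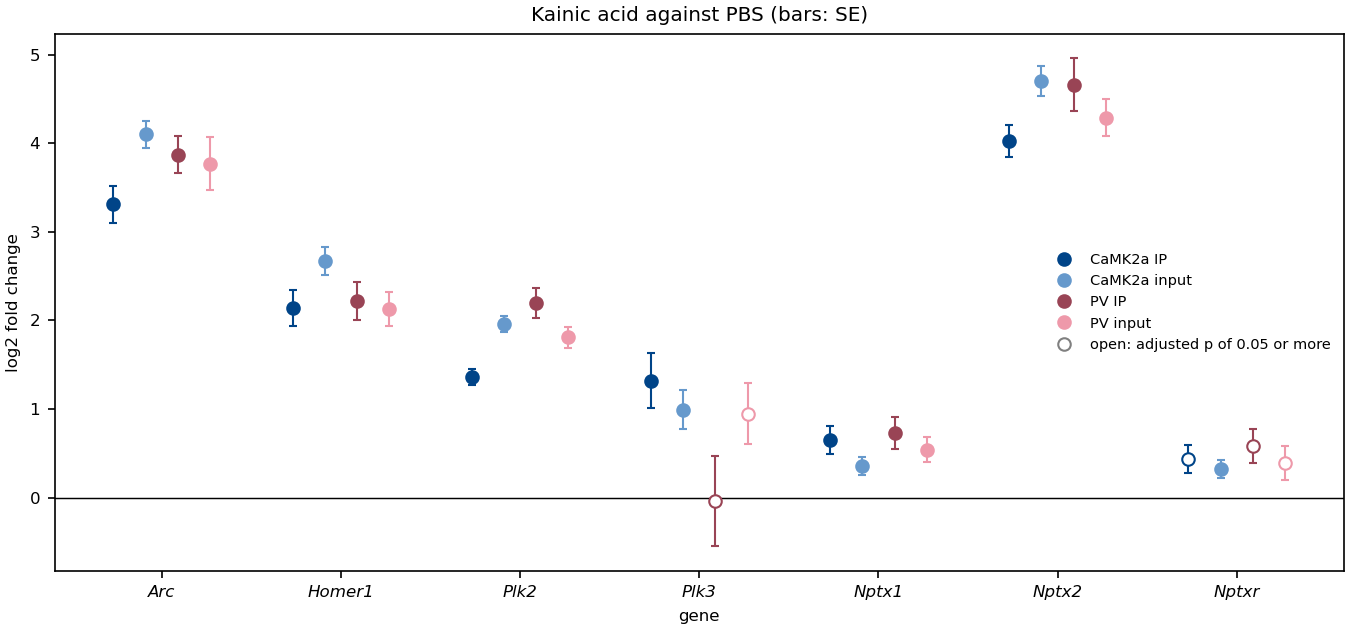
Log2 fold change of kainic acid against PBS (points) with SE (bars) for each gene in the CaMK2a IP, CaMK2a input, PV IP and PV input, with open points at adjusted p of 0.05 or more. Nptx2 and Arc changed by 3.31 to 4.70, and Plk3 stood at -0.04 in the PV IP.

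The size of the kainic acid effect was then compared between fractions and lines by testing the difference of effects. None of the 7 members passed in any of 4 such tests by edgeR, in which 0.103%, 0.0253%, 0.0934% and 0% of genes were called (IP minus input in the CaMK2a line, IP minus input in the PV line, PV IP minus CaMK2a IP, and PV input minus CaMK2a input). At an unadjusted p under 0.05, 3 members passed in the CaMK2a line (Arc, Plk2 and Nptx2, all with a smaller effect in the IP). In each of the PV line and the comparison of the IPs 1 did (Plk2). The shares above are for adjusted p, and the larger share of all genes at this looser cut is not given. These unadjusted counts therefore cannot be set against them. In the CaMK2a line the differences were -0.82 ± 0.28 for Arc, -0.65 ± 0.13 for Plk2 and -0.71 ± 0.27 for Nptx2, with edgeR adjusted p of 0.38, 0.061 and 0.48. IP and input of a lysate come from the same pooled mice. With the lysate pool as a block these 3 were called lower, at -0.86, -0.65 and -0.72 with edgeR adjusted p of 0.0054, 0.023 and 0.033, where 0.267% of genes were called lower. Without the block, Plk2 passed without kainic acid input replicate 2, at -0.69 (edgeR adjusted p = 0.048), and by DESeq2, at -0.64. Plk2 had a larger effect in the PV IP than in the CaMK2a IP by 0.85 ± 0.19 (edgeR adjusted p = 0.13), and it passed with PV replicates 1 to 3 only, at 0.91 (edgeR adjusted p = 0.018), and by DESeq2, at 0.89 (adjusted p = 0.001). The differences for Homer1, Nptx1 and Nptxr between the IPs were 0.09 ± 0.31, 0.08 ± 0.26 and 0.14 ± 0.26, and that of Plk3 was -1.36 ± 0.66. The Plk3 value includes PV IP replicate 4 after kainic acid, at 23.1 CPM against 4.50 to 6.87 CPM in the other replicates.

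IP against input asks which transcripts the tagged ribosomes held at a higher or lower share than the whole tissue. In the CaMK2a line after PBS, 4 of 7 members were called higher in the IP, where 32.6% of genes were, and 3 of 7 lower, where 31.6% were. Plk2 was higher by 1.61 ± 0.06, with 417 to 465 CPM in the IP and 144 to 154 CPM in the input. Homer1 was higher by 1.24 ± 0.06, Nptx2 by 0.86 ± 0.14 and Arc by 0.47 ± 0.10, with edgeR adjusted p of 6.6e-04 or less. Against the input Plk3 fell by 0.58 ± 0.17 (edgeR adjusted p = 0.0064), Nptxr fell by 0.34 ± 0.06 and Nptx1 fell by 0.31 ± 0.06. IP and input libraries did not overlap for any of the 7 members, and the share of all genes without overlap is not given. With all groups of the line in 1 fit the calls of Arc, Plk3 and Nptx1 ended, at edgeR adjusted p of 0.054, 0.15 and 0.07. Along with them, 9 of 11 tested pyramidal neuron markers were higher in this IP and 10 of 10 astrocyte, 12 of 12 microglia and 10 of 10 oligodendrocyte lineage markers were lower, and the part these cell types have in the members' ratios was not tested.

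After kainic acid the same ratio was called higher for 1 member, Plk2, at 0.95 ± 0.13 with 1074 to 1266 CPM against 557 to 621 CPM, where 24.3% of genes were called higher. No member was called lower by edgeR, where 25.8% of genes were, 0 also by DESeq2 and 0 at an unadjusted p under 0.05. Homer1 stood at 0.66 ± 0.26 and missed the threshold (edgeR adjusted p = 0.05), with IP libraries at 837 to 1660.5 CPM and input libraries at 625 to 1084 CPM, and its FDR in the authors' deposited table is 0.022. With the lysate pool as a block, Homer1 was called higher at 0.65 (edgeR adjusted p = 2.3e-04), so that 2 members were, against 26.8% of genes, and Arc was called lower at -0.39 (edgeR adjusted p = 0.012), against 28% of genes. Homer1 also passed without input replicate 1, at 0.98, or IP replicate 2, at 0.89. Plk3 and Nptxr stood at -0.30 ± 0.34 and -0.26 ± 0.18, and were called lower without IP replicate 1, at -0.78 for Plk3 (edgeR adjusted p = 0.021), and without IP replicate 2, at -0.48 for Nptxr (edgeR adjusted p = 0.02). Nptx2 and Nptx1 stood at 0.14 ± 0.19 and -0.06 ± 0.18. The SE of each member was larger than after PBS. Of 11 tested pyramidal neuron markers, 4 were called higher in this IP and 1 lower, so fewer calls after kainic acid were not particular to the members.

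In the PV line after PBS no member was called higher in the IP by edgeR, where 1183 of 11204 tested genes were, and 0 also at an unadjusted p under 0.05. With 7 members, a count of 0 cannot be told from that share. Called lower were 3 of 7, where 7.98% of genes were. Nptxr held 252 to 423 CPM in the IP and 694 to 1102 CPM in the input, and Nptx1 held 158 to 198 CPM against 403 to 522 CPM. The ratios were -1.30 ± 0.20 for Nptxr and -1.27 ± 0.14 for Nptx1, with edgeR adjusted p of 4.0e-04 and 3.5e-05. Plk2 fell by 0.79 ± 0.14 against the input (edgeR adjusted p = 0.0011), the opposite direction to its ratio in the CaMK2a line. Nptx2 stood at -0.85 ± 0.34 (edgeR adjusted p = 0.1), and with the lysate pool as a block it was also called lower, at -0.92 (edgeR adjusted p = 0.044), against 14.3% of genes. Arc and Homer1 libraries of IP and input overlapped, at -0.23 ± 0.21 and -0.19 ± 0.18.

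After kainic acid 2 of 7 members were called lower in the PV IP, where 4.11% of genes were: Nptxr at -1.10 ± 0.19 and Nptx1 at -1.07 ± 0.19, with edgeR adjusted p of 0.0019 and 0.0021. The lysate pool block called 4 members lower, against 9.66% of genes, with Plk2 at -0.39 and Nptx2 at -0.44 added (edgeR adjusted p of 0.02 and 0.025). Plk3 stood at -0.69 ± 0.49, and without kainic acid IP replicate 4 it was called lower at -1.50 (edgeR adjusted p = 0.025). All 11 tested pyramidal neuron markers were lower in the PV IP than in its input after PBS and 4 of 11 after kainic acid, while 10 of 11 and 11 of 11 PV interneuron markers were higher. Glial markers were lower too after PBS, 9 of 10 for astrocytes, 8 of 12 for microglia and 7 of 10 for the oligodendrocyte lineage. Of endothelial and mural cell markers 3 of 12 were called lower. Oligodendrocyte lineage markers still summed to 3619 to 5537 CPM in the PV IP after PBS, against 5015 to 6993 CPM in its input. The part of these cells in the ratios was not tested.

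**Figure D3:**
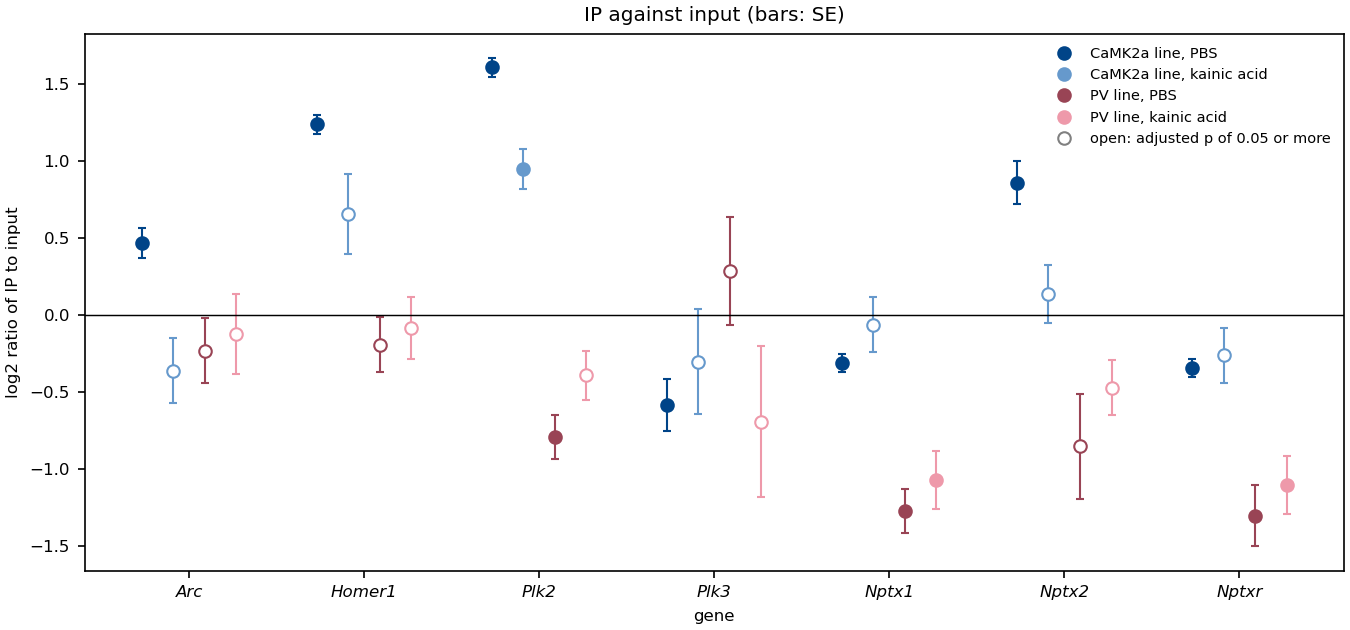
Log2 ratio of IP to input (points) with SE (bars) for each gene, by line and treatment, with open points at adjusted p of 0.05 or more. Plk2 and Homer1 lie above 0 in the CaMK2a line, and Nptx1 and Nptxr lie near -1 in the PV line.

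Between the IPs, 6 of 7 members were called lower in the PV IP than in the CaMK2a IP after PBS, where 14.3% of genes were, and 6 of 7 after kainic acid, where 8.94% were. The lines differ also in RNA input, number of pooled mice and depth, which cannot be told apart from the cell type here. Their inputs differed too for some members, which was not tested as a level. After kainic acid mean input CPM was 835 (PV) and 1600.4 (CaMK2a) for Arc, 366 and 609 for Nptx2, and 1114 and 1629 for Nptxr. The PV input mean was close for Homer1, at 763 and 779 CPM. It was higher for Plk2, at 645 and 579.5 CPM, and Nptx1, at 659 and 629.7 CPM. After PBS the ratios were -2.15 ± 0.13 for Plk2, -2.08 ± 0.33 for Nptx2, -1.63 ± 0.17 for Nptxr, -1.38 ± 0.18 for Arc, -1.14 ± 0.13 for Nptx1 and -0.97 ± 0.17 for Homer1, with edgeR adjusted p of 0.0011 or less. PV and CaMK2a libraries did not overlap for these 6, and the share of all genes without overlap is not given. These comparisons use the same IP libraries as those of kainic acid against PBS. After kainic acid the same 6 ranged from -1.45 ± 0.19 for Nptxr to -0.76 ± 0.21 for Arc. The Arc call after kainic acid ended without CaMK2a replicate 1 or 3 or PV replicate 1 or 2, at edgeR adjusted p between 0.061 and 0.14. The Homer1 call ended without CaMK2a replicate 1 or 3 or PV replicate 2, at edgeR adjusted p between 0.066 and 0.14. Plk3 did not pass after PBS, at 0.15 ± 0.28, or after kainic acid, at -1.17 ± 0.54. It was called lower after kainic acid without PV replicate 4, at -1.97 (edgeR adjusted p = 0.0064). Pyramidal neuron markers were lower in the PV IP for 11 of 11 genes after PBS and 10 of 11 after kainic acid, and astrocyte markers higher for 10 of 10 and 8 of 10, and their part in these ratios was not tested.

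Levels of different genes are compared per length, in the deposited RPKM, where depth and listed length are divided out. After PBS Nptxr was the most abundant member in all 4 fractions, with 61.2 ± 3.49 RPKM (SD, n = 3) in the CaMK2a IP and 19.2 ± 6.15 RPKM (SD, n = 4) in the PV IP, values that may hold reads of Npcd. Plk2 had the next mean in both IPs, at 47.6 ± 2.04 and 10.3 ± 1.59 RPKM, and in the PV IP its libraries overlapped those of Nptx1, at 9.66 ± 1.17 RPKM. Nptx1 had the next mean in both inputs. Plk3 and Nptx2 were the lowest pair after PBS in all fractions, at 1.17 and 4.88 RPKM in the CaMK2a IP and 1.26 and 1.08 RPKM in the PV IP, where their libraries overlapped. After kainic acid Arc was first in all 4 fractions, at 116 ± 34.4 RPKM in the CaMK2a IP and 65.1 ± 12.8 RPKM in the PV IP. Its libraries overlapped those of Plk2, the next member, in both IPs, where Plk2 stood at 114 ± 11.3 and 45.5 ± 6.05 RPKM. Nptx2, at 74.8 ± 16.6 RPKM, stood above Nptx1, at 32.6 ± 8.53 RPKM, in the CaMK2a IP after kainic acid, the reverse of their order after PBS. Plk3 was last in all 4 fractions after kainic acid, at 1.21 to 3.72 RPKM.

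**Figure D4:**
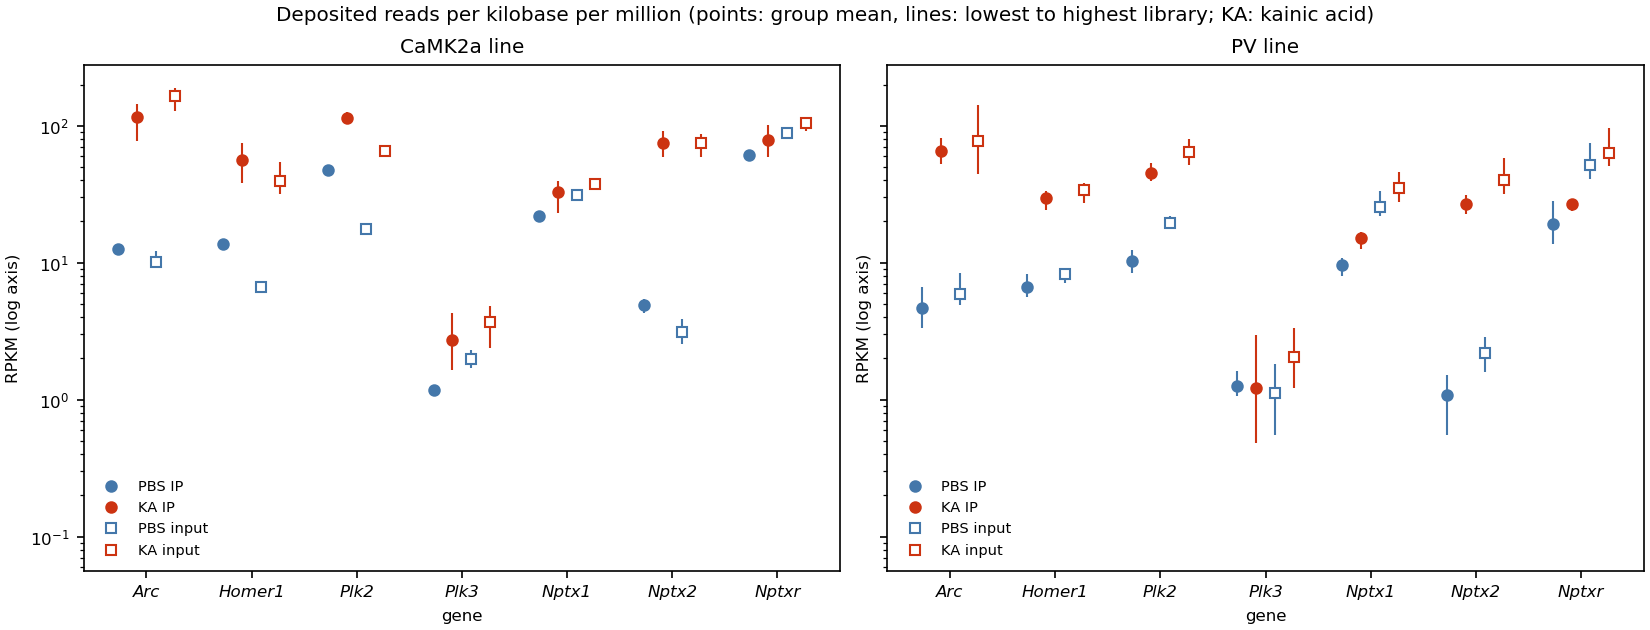
Deposited RPKM (log axis) of each gene in the CaMK2a line (left) and PV line (right), with points at the group mean and lines from the lowest to the highest library. Nptxr leads after PBS, Arc leads after kainic acid, and Plk3 is lowest after kainic acid in every fraction.

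Ordered by CPM across the 8 groups, each of Arc, Homer1 and Nptx2 was higher in all 4 kainic acid groups than in all 4 PBS groups. For Plk2 the PV IP after kainic acid, at 439 to 498 CPM, overlapped the CaMK2a IP after PBS, at 417 to 465 CPM. Nptx1 and Nptxr were instead lowest in both PV IP groups, whatever the treatment. For Nptx1 the PV IP after kainic acid, at 219.9 to 350.1 CPM, lay below every PBS library outside the PV IP, of which the lowest held 379 CPM. As a description over the 28 libraries, which share lines, treatments and lysates, log2 CPM of Arc and Nptx2 correlated at r = 0.98, that of Nptx1 and Nptxr at r = 0.91, and that of Plk2 and Plk3 at r = 0.42. Among 7870 genes compared, those most like Arc were the activity-induced transcription factor genes Egr4, Fosl2 and Npas4 (r = 0.981, 0.979 and 0.977), and those most like Nptx2 were Fosl2, the growth factor gene Bdnf and Npas4 (r = 0.983, 0.980 and 0.979). Homer1 was most like Arpp21, Pcsk1 and Sertm1 (r = 0.969, 0.967 and 0.966), and Plk2 most like Brinp1, Stmn4 and Egr3 (r = 0.984, 0.972 and 0.964). For Plk3 the best values were lower, 0.827 for Bdh1, 0.817 for Nploc4 and 0.798 for Apbb3. Nptx1 was most like Wbscr17, Nrp2 and Spg21 (r = 0.914, 0.912 and 0.911), and Nptxr, after Npcd, most like Wbscr17 and Srebf2 (r = 0.968 and 0.965).

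The partners of these proteins were described from lists of other genes, which were chosen with earlier results of these data known. Their counts stand beside the shares of all tested genes called after kainic acid, which were 19.8% higher and 15.3% lower in the CaMK2a IP, 19.3% and 15.7% in the CaMK2a input, 4.05% and 0.801% in the PV IP, and 8.21% and 3.36% in the PV input. Of the AMPA receptor list 12 of 16 genes were tested, auxiliary subunits only, and Gria1 to Gria4 were not analysed here. After kainic acid 2 of 12 were called higher in the CaMK2a IP, near the 19.8% of all genes, and 5 lower, against 15.3%; in the CaMK2a input 2 and 4, in the PV IP 1 and 0, and in the PV input 2 and 2. Cacng3, which encodes a transmembrane AMPA receptor regulatory protein, rose in all 4 fractions, by 0.91 ± 0.21, 0.99 ± 0.16, 0.72 ± 0.19 and 0.93 ± 0.13. Gsg1l, another auxiliary subunit gene, rose by 1.04 ± 0.13 in the CaMK2a IP and 1.44 ± 0.18 in the PV input, and Shisa9 fell by 0.49 ± 0.13 and 0.72 ± 0.15 in the same fractions. The list's median change was -0.29, -0.20, -0.01 and -0.25 in the order CaMK2a IP, CaMK2a input, PV IP and PV input.

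Homer partners and scaffold genes were tested for 15 of 18 members. In the CaMK2a IP 3 of 15 were called higher, near the 19.8% of all genes, and 5 lower, against 15.3%; in the CaMK2a input 4 and 5, in the PV IP 0 and 0, and in the PV input 1 and 3. DESeq2 also called 0 and 0 in the PV IP. By edgeR 2 genes there, Dlgap1 and Grm5, had an unadjusted p under 0.05, both lower. The share of all genes at that looser cut is not given. With PV replicates 1 to 3 only, 1 was called higher and 2 lower by edgeR, where 577 and 178 of all genes were. Dlgap2, a scaffold gene, rose by 1.11 ± 0.11 in the CaMK2a IP. Homer2, the relative of Homer1, fell by 0.82 ± 0.09, 0.66 ± 0.10 and 0.60 ± 0.15 in the CaMK2a IP, CaMK2a input and PV input, where Homer1 rose. The list's medians were -0.17, -0.09, -0.12 and -0.32.

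Of the list of clathrin endocytosis and AMPA receptor sorting 18 of 20 genes were tested. Of these 7 were called higher in the CaMK2a IP, against 19.8% of all genes, and 1 lower, against 15.3%; in the CaMK2a input 5 and 2, and in each PV fraction 1 and 0. The clathrin heavy chain gene Cltc rose in all 4 fractions, by 1.21 ± 0.10, 1.23 ± 0.09, 0.65 ± 0.16 and 0.92 ± 0.12. Cltb, a clathrin light chain gene, rose by 1.16 ± 0.09 in the CaMK2a IP, and Ap2b1, an adaptor subunit gene, by 0.68 ± 0.08. The list's medians were 0.13, 0.06, 0.10 and 0.08.

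Of secreted and transsynaptic organisers 16 of 22 genes were tested, with 5 called higher and 4 lower in both CaMK2a fractions, against 19.8% and 15.3% of all genes in the IP and 19.3% and 15.7% in the input, 1 and 0 in the PV IP, and 0 and 1 in the PV input. Cbln4, a secreted organiser gene, rose by 0.98 ± 0.29 in the CaMK2a IP, and the neuroligin gene Nlgn3 fell by 0.76 ± 0.09 there, by 0.69 ± 0.09 in the CaMK2a input and by 0.68 ± 0.13 in the PV input. Cbln1 rose by 2.20 ± 0.58 in the PV IP (edgeR adjusted p = 0.035). The list's medians were 0.22, 0.07, 0.02 and 0.12. Of other polo-like kinases and Plk2 substrates 3 of 8 genes were tested. Pdlim5 was called higher in the CaMK2a IP, the CaMK2a input and the PV input, at 1.33 ± 0.30, 0.61 ± 0.12 and 0.48 ± 0.14, and Sipa1l1, which encodes the Plk2 substrate SPAR, fell by 0.29 ± 0.08 and 0.38 ± 0.09 in the CaMK2a IP and input.

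Of the other pentraxin family genes 1 of 4, Ptx3, was tested. Ptx3 encodes a long pentraxin of innate immunity that is not among the neuronal pentraxins. It held 0.661 to 1.54 CPM in the CaMK2a input after PBS and 44.6 to 73.8 CPM after kainic acid, a change of 5.62 ± 0.26 (edgeR adjusted p = 2.1e-11). In the CaMK2a IP it held 0.292 to 1.42 CPM and 11.4 to 20.2 CPM, and it was lower in the IP than in the input after kainic acid by 3.75-fold (edgeR adjusted p = 6.8e-05), whereas no neuronal pentraxin was called in that comparison. The PV IP held 0 to 0.168 CPM after PBS, with 2 of 4 libraries at 0, and 15.5 to 48.5 CPM after kainic acid. Ptx3 also passed there (edgeR adjusted p = 2.5e-06), and its fitted fold change depends on the prior count and is not given.

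**Figure D5:**
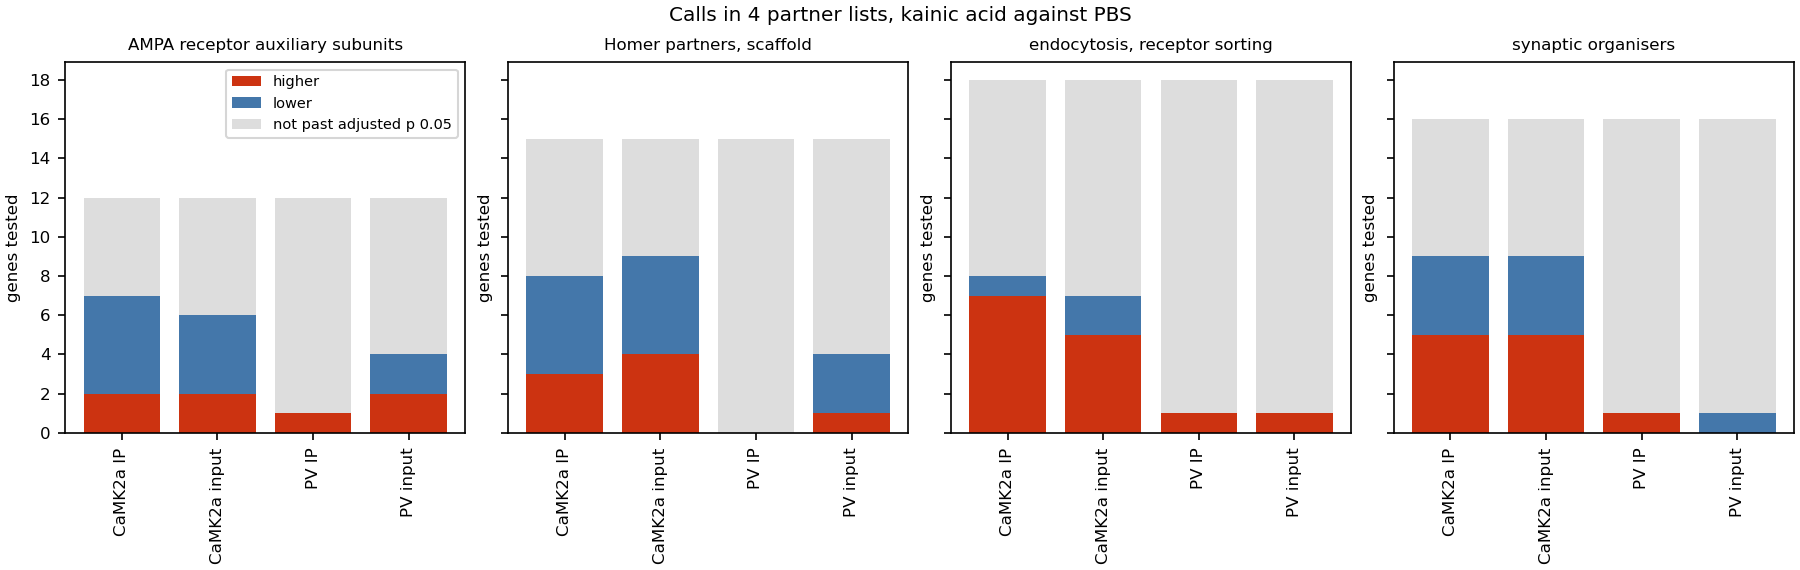
Number of genes tested (bar height) and called higher, lower or neither after kainic acid in 4 partner lists, by fraction. The endocytosis list has 7 genes called higher in the CaMK2a IP and the Homer partner list has none called in the PV IP.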

How the data were processed

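RNA of IP and input was sequenced in 28 libraries (SPIA amplification, 75 bp single-end reads, per the labels' protocols). Per the submitters' processing notes reads were aligned with BWA to mm10 (GRCm38) and compared with edgeR, with versions not given in the sources used here. The authors deposited, per the file headers, reads per gene as counts, their RPKM, the fold ratio between groups and the p-value and FDR of their own edgeR comparison. Higher and lower genes were deposited apart and were joined into 6 tables of 13384 to 14033 genes, of which 12878 are in all 6. The 189281 counts that tables share were equal. The lowest row sum in a table was 4.

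Counts were tested with edgeR 4.0.16 (R 4.3.3; quasi-likelihood, TMM factors, filterByExpr with a count minimum of 10, prior count 0.125) on only the groups of each of 14 comparisons. P-values were Benjamini-Hochberg adjusted over all tested genes, with a threshold of 0.05, and the SE is the log2 fold change divided by the square root of F. The fits were checked on simulated counts. Replicates are pools of separate mice. CPM used TMM factors over the 12878 shared genes. RPKM served only to compare levels between genes. Likeness was Pearson's r of log2 CPM (prior count 1) among 7870 genes with a mean log2 CPM of at least 3, and the 3 highest are named. Of each partner list, genes named come from the 4 with the largest change past the threshold. Dlgap1 and Grm5 in the PV IP were named after their values were seen. The members and lists were chosen with earlier results of these data known. Promoter windows are RefSeq's, and Homer1, Plk2 and Plk3 matched, 3 of 7 members.

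IP and input with the same number come from 1 lysate pool. Between kainic acid and PBS, deviations of same-numbered libraries correlated at 0.11 to 0.30 in the CaMK2a input. The PV input gave 0.29 to 0.81, the CaMK2a IP -0.31 to 0.21 and the PV IP 0.05 to 0.55. The highest values, 0.81 and 0.55, were those of PV replicate 4. Kainic acid input replicate 2 of CaMK2a and replicates 2 and 3 of PV were closest to PBS replicate 1. Equal numbers are therefore not shown to pair pools across treatments, and the replicate block is only an alternative there. Alternatives were other scaling factors, filters, DESeq2 1.42.0, all groups of a line in 1 fit, the replicate block, PV replicates 1 to 3 only and leaving out each library.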

Additional observations from a re-analysis of the deposited data

Results flagged for a closer look

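In the PV input after kainic acid, replicate 4 stood apart for Nptxr: on the log2 CPM scale its gap to the nearest library was 0.902 of the range of the 4 libraries, above Dixon's critical value. This was 1 of 28 tests, made for each of the 7 members in each PV group of 4 libraries, and chance marks about 1 in 20 tests. The tests share libraries and are not independent. In the CaMK2a line the kainic acid effect in the IP was smaller than in the input for 3 members when the lysate pool was a block, with a difference of -0.86 for Arc, -0.65 for Plk2 and -0.72 for Nptx2. In the fit without the block and with all libraries, none of these 3 differences passed by edgeR. Plk2 passed there with the stricter filter, at -0.68, without kainic acid input replicate 2, at -0.69, and by DESeq2, at -0.64.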

How the results depend on the processing

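Of the members' values under the alternatives, 1463 kept their direction and side of the threshold, 41 gained the call, 28 lost it and 29 changed sign. Every change of sign was in an uncalled difference. With PV replicates 1 to 3 only, Arc in the PV IP against input after kainic acid went to 0.20 and the Plk3 difference between the inputs' kainic acid effects to 0.03. Leaving out 1 library gave these ranges. The Plk3 kainic acid effect in the PV IP ran from -0.86 to 0.20. For IP against input after kainic acid, Nptx1 ran from -0.21 to 0.13 and Nptx2 from -0.04 to 0.30 in the CaMK2a line, and Arc from -0.29 to 0.26 and Homer1 from -0.21 to 0.06 in the PV line. For the effect in the IP minus the input, Plk3 ran from -0.17 to 0.59 and Nptxr from -0.13 to 0.28 in the CaMK2a line, and Arc from -0.08 to 0.47 and Homer1 from -0.04 to 0.24 in the PV line. For the effect in the PV IP minus the CaMK2a IP, Homer1 ran from -0.15 to 0.39 and Nptx1 from -0.08 to 0.22, and for the inputs Plk3 ran from -0.32 to 0.21 and Nptxr from -0.15 to 0.23.

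Counts of called members moved as follows. With all groups of the line in 1 fit, 1 member instead of 3 was lower in the CaMK2a IP than in its input after PBS. After kainic acid 2 instead of 1 were higher there with no filter, DESeq2, the replicate block or all groups, and 1 instead of 0 was lower with the block, and leaving out 1 library gave 1 to 2 and 0 to 1. In the PV line the block gave 4 instead of 2 lower. The effect in the CaMK2a IP minus the input was lower for 1 member with the stricter filter or DESeq2, for 3 with the replicate block of lysate pools, and for 0 to 1 with 1 library left out, instead of 0. The effect in the PV IP minus the CaMK2a IP was higher for 1 instead of 0 with DESeq2 or PV replicates 1 to 3 only. In the PV IP, where equal numbers are not shown to pair libraries, the replicate block called Nptxr higher after kainic acid, at 0.60 (edgeR adjusted p = 0.022). Leaving out 1 library, 5 to 7 members were higher after kainic acid in the CaMK2a IP, 6 to 7 in its input, 4 to 6 in the PV IP and 4 to 7 in its input.

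Over all genes, 450 were higher after kainic acid in the PV IP and 776 with all groups in 1 fit. In that IP 89 were lower, against 209 by DESeq2, 248 with the block, 285 with all groups, 178 with replicates 1 to 3 and 30 to 164 with 1 library left out. In the PV input 915 were higher, against 1835 with the block, 603 with all groups and 1608 with replicates 1 to 3, and 374 lower, against 1590, 214 and 1150, 658 by DESeq2 and 196 to 616 with 1 library left out. For PV IP against input the block gave 1599 lower after PBS instead of 894, and 1313 higher and 1082 lower after kainic acid instead of 767 and 460, where DESeq2 gave 719 lower. Leaving out 1 library gave 979 to 1924 lower instead of 1633 after kainic acid in the CaMK2a IP. For PV IP against input it gave 581 to 1025 lower after PBS, and 486 to 843 higher and 234 to 520 lower after kainic acid. For PV IP against CaMK2a IP it gave 1219 to 2347 higher and 921 to 2058 lower after PBS, instead of 2003 and 1587, and 697 to 1783 and 453 to 1447 after kainic acid, instead of 1436 and 998. For the CaMK2a IP minus input effect, 5 were higher and 7 lower, against 37 and 46 by DESeq2 and 26 and 31 with the pool block. For the PV IP minus CaMK2a IP effect, 3 and 8 became 20 and 23 by DESeq2 and 31 and 39 with replicates 1 to 3. In the PV line the effect difference was called for 1 and 2 genes, and at most 4 and 6 under any alternative. Plk3 rested on few counts, as few as 45 in a PV IP library.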
